A study of Mus musculus with 10 samples.

Results

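Toll-like receptors and the NF-kB pathway that they drive were followed in spontaneous mammary tumors of mice treated with lovastatin (Lov) or vehicle (Vhcl). The 38 genes comprised receptors and co-receptors, adaptors, kinases and ubiquitin ligases, NF-kB subunits and inhibitors. They were listed by name, with earlier results of these data known. On the arrays a gene was represented by the probe set annotated to that gene alone, and by the one of highest mean signal over the 10 tumors where there were several. By this rule 34 of the 38 genes were measured, among 18193 genes measured in all. Irak4, Traf3, Chuk and Nfkb1 were not analysed here, since none of the probe sets was paired with them alone.

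All 10 tumors came from female FVB/N-Tg(MMTVneu) (Tg-neu) mice, in which the MMTV promoter drives the neu proto-oncogene in the mammary gland, so that both groups carried the transgene. From the onset of the first tumor the mice received intraperitoneal injections, 3 per week for 6 weeks, of Lov at 10 mg/kg or of Vhcl (ethanol). The age of the mice is not given in the labels, and a free-text field describes the control tumors as untreated although their treatment label is vehicle. Whole tumors were profiled on Affymetrix mouse arrays, 1 per tumor: A45, A49, A54, A59 and AB11 were Vhcl-treated and A19, A48, A50, A55 and AB10 were Lov-treated (n = 5/group). Below, 5 values in a row follow this order of tumors.

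Toll-like receptors recognize microbial molecules at the cell surface or in endosomes and share a signaling domain with the receptor of interleukin-1. Their adaptors recruit IRAK kinases and the ubiquitin ligase TRAF6, which lead to the kinase that phosphorylates the IkB inhibitors. Once IkB is degraded, NF-kB dimers enter the nucleus and induce inflammatory genes, among them genes of their own inhibitors. In tumors the pathway is known from macrophages and other leukocytes and from the tumor cells themselves. Much of it is controlled through protein modification, which arrays do not measure.

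Of 6 markers of mammary epithelium, Krt8, Krt18, Epcam, Cdh1 and Erbb2 had high signals in both groups. Krt19 averaged near the array median (mean log2 signal 5.82 in Vhcl- and 4.81 in Lov-treated tumors), but was 8.24 in Vhcl A59 and 6.46 in Vhcl A49. The 6 markers averaged 10.10 in Vhcl- and 9.82 in Lov-treated tumors, 5 of the 6 differences were negative, and none passed the test used below. The largest of these differences was that of Krt19 (-1.01). Signals of macrophage markers, averaged over 10 genes, ranged from 7.30 to 7.69 in Vhcl-treated tumors and from 6.92 to 7.70 in Lov-treated tumors. Some tumors had high signals for markers of neighboring tissue. Salivary gland markers (3 genes) averaged 13.54 in Vhcl AB11, 7.22 in Vhcl A59 and 5.29 in Lov A19, and lay between 3.27 and 3.47 in the other tumors. Muscle markers (3 genes) averaged 9.09 in Vhcl A54, 9.06 in Vhcl A59 and 8.99 in Lov A55, and 6.23 or less elsewhere. In RNA of whole tumors, fewer cells of a type and less RNA per cell cannot be told apart.

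Apart from Cd14, the 34 measured genes had mean log2 signals within 0.5 of each other in the 2 groups. None passed a false discovery rate (FDR) of 0.05 in limma's moderated test, with adjustment over all 45037 probe sets tested (0 genes, lowest adjusted p = 0.928), and neither did any other probe set of the arrays (lowest adjusted p = 0.369). With unadjusted p-values, Cd14 passed 0.05 as lower and Nfkbia as higher after Lov treatment, and the other 32 genes did not pass in either direction. The 1 lower gene made up 2.94% of the measured genes, against 2.16% of all probe sets lower at the same threshold. The 1 higher gene made up the same 2.94%, against 3.13% of all probe sets higher. Both shares were near those of the whole array and therefore no result about the pathway. The comparison is not like for like. The listed genes have 1 probe set each, 29 of 34 above the median signal, whereas all probe sets include dim ones and those without a gene. The share over 1 probe set per gene was not computed, here or for the lists below. The values of the groups overlapped for 34 of 34 genes, while 0.258% of all probe sets had Lov-treated tumors entirely below and 0.344% entirely above the Vhcl-treated ones.

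Differences between group means (Lov minus Vhcl, log2) were negative for 17 and positive for 17 genes, and negative for 47.3% of all probe sets. Under the alternatives to this comparison the sign held for 22 genes and turned at least once for 12, which were Tlr2, Tlr8, Tlr9, Ly96, Irak1, Irak2, Irak3, Traf6, Nfkb2, Rel, Nfkbib and Nfkbie, all at differences of 0.14 or less in size. The median difference was -0.04, beside 0.01 over all probe sets, and 25 of the 34 were smaller than 0.2 in size. The 95% interval of the difference lay within 1.5-fold either way for 26 genes and within 2-fold for 32. The same was not counted over all probe sets, so these counts are no result about the pathway. Intervals that reached past 1.5-fold did so downward for Cd14, Il1rap, Tirap, Relb and Nfkbiz and upward for Tlr2, Irak3 and Nfkbia, and those of Cd14 and Nfkbiz reached past 2-fold.

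**Figure D1:**
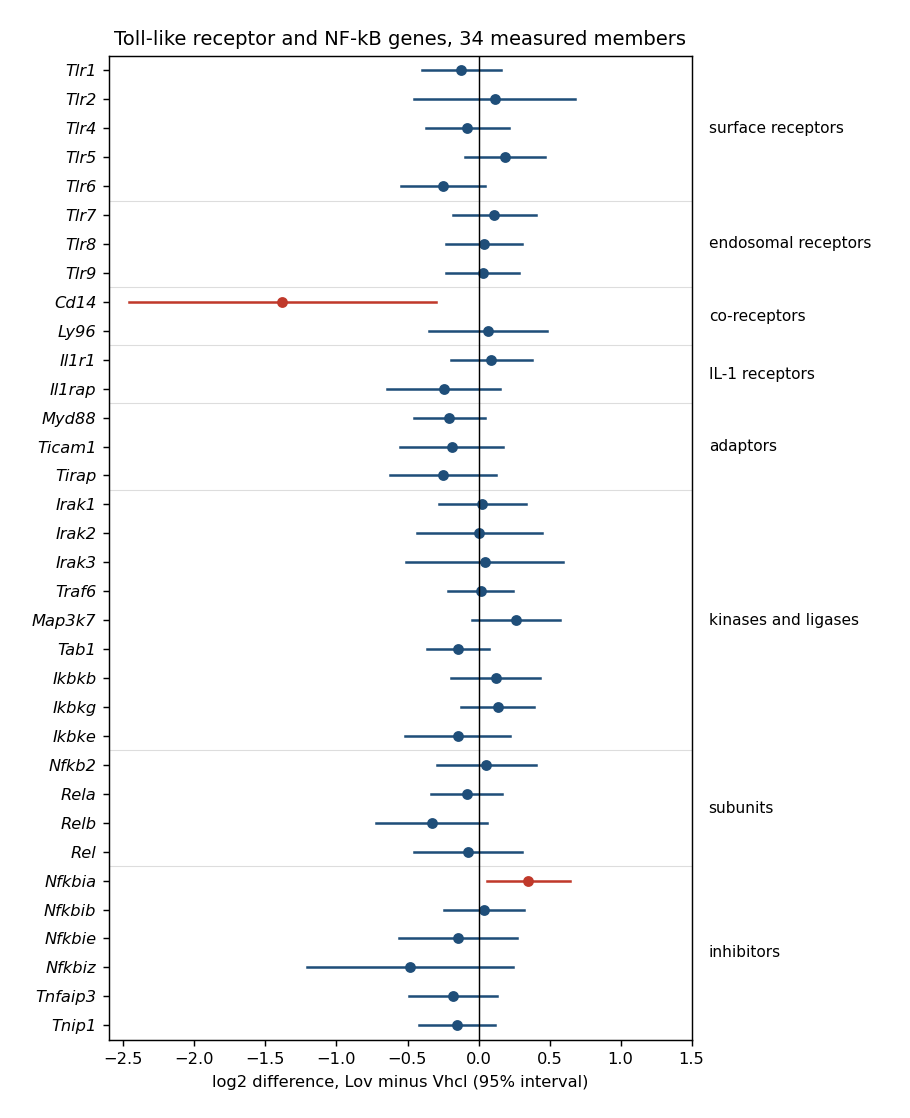
Difference in mean log2 signal, Lov minus Vhcl, for the 34 measured genes, grouped by role. Points are differences, lines are 95% intervals of limma's moderated test, and red marks an unadjusted p under 0.05; Cd14 at -1.38 and Nfkbia at 0.35 are the 2 genes whose interval does not include 0.

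Surface receptors gave small differences in both directions. Tlr2, which with Tlr1 or Tlr6 recognizes bacterial lipopeptides, had log2 signals of 6.36, 7.68, 7.60, 6.46 and 7.11 in Vhcl-treated tumors and 6.74, 7.33, 7.39, 7.23 and 7.09 in Lov-treated tumors. The Lov-treated tumors all lay within the range of the Vhcl-treated ones, in which A45 and A59 were low. The difference was 0.11 (95% interval -0.45 to 0.68), and its sign turned when either of those tumors was left out (-0.06 without A45 and -0.03 without A59).

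Tlr4, the receptor for lipopolysaccharide, had log2 signals of 5.94, 6.55, 6.60, 6.20 and 6.42 in Vhcl-treated tumors and 6.06, 6.36, 6.24, 6.27 and 6.39 in Lov-treated tumors. Here too the Lov-treated tumors fell inside the Vhcl range, and the difference was -0.08 (95% interval -0.37 to 0.21). Of the other surface receptors, Tlr1 differed by -0.12, Tlr6 by -0.25 and Tlr5, the flagellin receptor, by 0.19. The endosomal receptors of nucleic acids, Tlr7, Tlr8 and Tlr9, differed by 0.11, 0.04 and 0.03. Of the 34 genes, 5 had mean signals below the median of all probe sets (5.02), namely Tlr1, Tlr7, Tlr8, Ly96 and Rel.

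Cd14, the co-receptor that hands lipopolysaccharide to Tlr4, gave the largest difference of the 34 genes. Its log2 signals were 8.18, 10.57, 10.22, 9.73 and 7.94 in Vhcl-treated tumors and 8.54, 8.52, 7.49, 7.75 and 7.44 in Lov-treated tumors. Vhcl-treated tumors A49, A54 and A59 were high, whereas A45 and AB11 lay within the Lov range. The mean was 9.33 ± 1.20 in Vhcl- and 7.95 ± 0.54 in Lov-treated tumors (SD, n = 5/group), a difference of -1.38 with a standard error of 0.49, or 2.60-fold. Limma gave an unadjusted p of 0.017 and an adjusted p of 0.928, and the exact permutation test (2-sided, over tumors) gave p = 0.063. The 95% interval ran from -2.46 to -0.30. The difference was -1.88 without Vhcl AB11 and Lov A19, and -1.86 without these and Vhcl A59, the 3 tumors with raised salivary markers (a set chosen after seeing the data). It was -1.17, and missed the unadjusted threshold, when the gap between the 3' and 5' probe sets of beta-actin, a measure of RNA quality, was a covariate. The study itself lists Cd14 among the genes lowered in these same arrays, so its direction here is not independent evidence.

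Ly96, the partner that binds lipopolysaccharide together with Tlr4, differed by 0.07 (95% interval -0.35 to 0.48). The receptors for interleukin-1, at the probe sets that stand for them, likewise did not pass the test. Il1r1, the signaling chain, had log2 signals of 5.75, 5.88, 6.21, 6.38 and 6.19 in Vhcl-treated tumors and 6.32, 6.23, 6.01, 6.26 and 6.04 in Lov-treated tumors. All Lov-treated tumors lay within the Vhcl range (difference 0.09, 95% interval -0.19 to 0.37). Il1rap, its accessory chain, differed by -0.25, with Lov A19 lowest at 6.93.

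**Figure D2:**
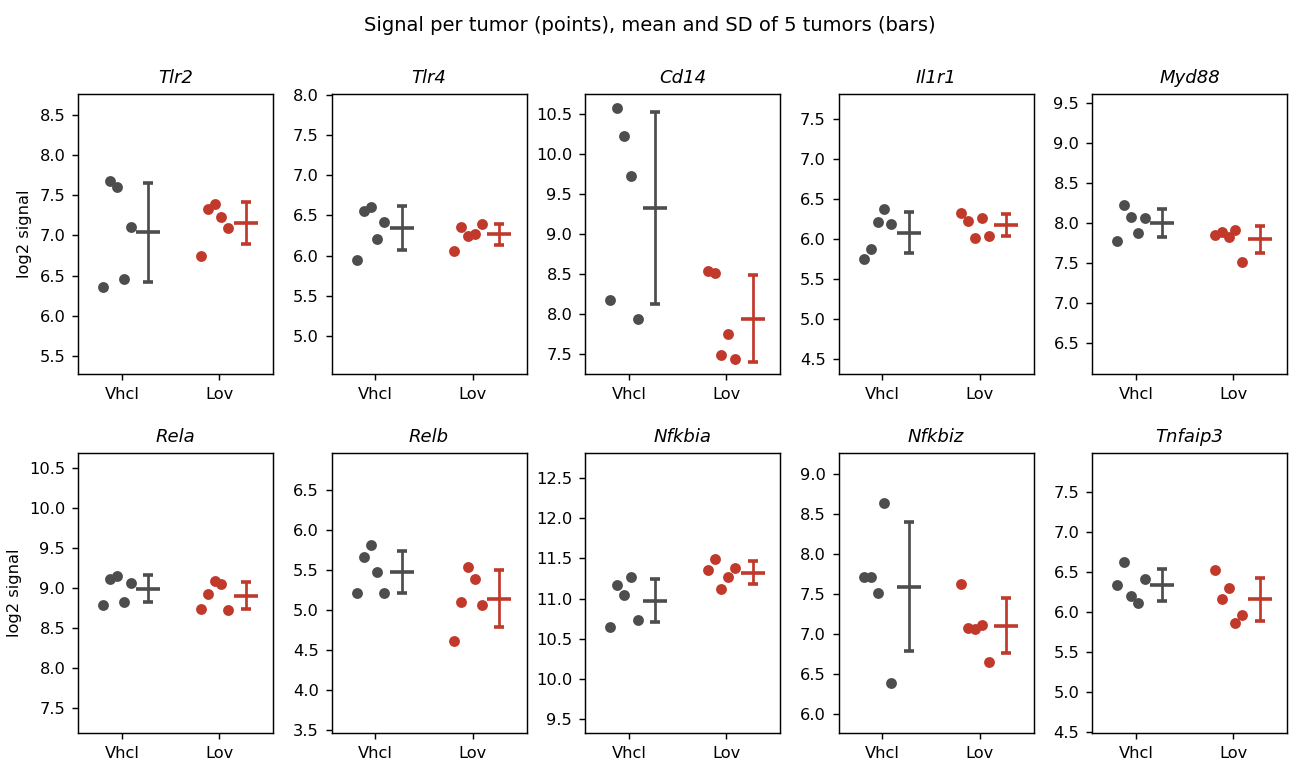
Log2 signal of 10 genes in each of the 10 tumors; gray points are Vhcl-treated and red points Lov-treated tumors, bars give the mean and SD of 5 tumors, and every panel spans 3.5 log2 units. Cd14 has 3 high Vhcl-treated tumors, Nfkbia is a little higher in Lov-treated tumors, and the groups overlap in each panel.

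The 3 adaptors all had negative differences, none of which passed the test. Myd88, used by nearly all Toll-like receptors and by the interleukin-1 receptor, had log2 signals of 7.78, 8.22, 8.08, 7.87 and 8.06 in Vhcl-treated tumors and 7.85, 7.89, 7.82, 7.91 and 7.51 in Lov-treated tumors. Only Lov AB10 lay below the Vhcl range. The difference was -0.21 (95% interval -0.45 to 0.04, exact permutation p = 0.103). Leaving out Vhcl A45 took it past the unadjusted threshold (-0.26). Tirap, which brings Myd88 to Tlr2 and Tlr4, differed by -0.25 and Ticam1, the adaptor of the Myd88-independent branch, by -0.19.

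Of the kinases and ligases, 9 of 12 were measured, and 7 of the 9 differences were positive, 4 of them with a sign that did not hold under every alternative. Irak1 (0.03), Irak2 (0.01), the inhibitory family member Irak3 (0.04) and Traf6 (0.01) differed least. Map3k7, the kinase downstream of Traf6, was 0.26 higher (95% interval -0.05 to 0.57), while Tab1, its binding partner, was -0.15. Ikbkb, the catalytic subunit that phosphorylates IkB, differed by 0.12 and Ikbkg, the regulatory subunit, by 0.14. Ikbke, a related kinase of the interferon branch, differed by -0.15.

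NF-kB subunits, at the probe sets that stand for them, did not pass the test in either direction. Rela, the main transactivating subunit, had log2 signals of 8.79, 9.11, 9.15, 8.82 and 9.06 in Vhcl-treated tumors and 8.74, 8.92, 9.08, 9.05 and 8.72 in Lov-treated tumors. The ranges of the groups overlapped broadly (difference -0.08, 95% interval -0.33 to 0.16). Relb, the partner of Nfkb2 in the alternative pathway, gave the largest difference of the 4 measured subunits at -0.33 (95% interval -0.72 to 0.06), with A19, A48 and AB10 of the Lov group below the whole Vhcl group. Nfkb2 differed by 0.06 and Rel by -0.08.

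Among the inhibitors, Nfkbia encodes IkB alpha, which holds NF-kB in the cytoplasm and is itself a well-known NF-kB target. Its promoter is printed here because Nfkbia was the 1 listed gene higher at the unadjusted threshold and its induction by NF-kB is textbook knowledge. The stretch comprises the 250 bases before the RefSeq start site, chr12:55492648-55492897 of GRCm38.p6, minus strand, with capitals on the letters GGGANNTTC on either strand, first bases at -113 and -28 from the start.
Nfkbia: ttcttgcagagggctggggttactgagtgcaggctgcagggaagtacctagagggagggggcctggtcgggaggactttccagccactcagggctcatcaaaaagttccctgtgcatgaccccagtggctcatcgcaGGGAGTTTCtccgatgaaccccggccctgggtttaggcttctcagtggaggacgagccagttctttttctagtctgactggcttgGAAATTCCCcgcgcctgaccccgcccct
The motif GGGANNTTC is a shortened form of the NF-kB site, and was searched on both strands of windows from 250 bases before to 50 after each start. It was present for 4 of the 29 listed genes with a window (Tlr2, Map3k7, Nfkb2 and Nfkbia, 13.8%) and for 4.47% of 27025 genes. The looser GGGNNNTTC, which includes every match of the former, was present for 15 of the 29 (51.7%) and for 15.8% of genes. Genes can have several windows, a match is not evidence of binding, and no match says only that these letters are not in the window.

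The log2 signals of Nfkbia were 10.65, 11.17, 11.05, 11.27 and 10.73 in Vhcl-treated tumors and 11.36, 11.49, 11.12, 11.27 and 11.38 in Lov-treated tumors. Vhcl A45 and AB11 were lowest, and 3 Lov-treated tumors lay above all Vhcl-treated ones. The mean was 10.97 ± 0.27 in Vhcl- and 11.32 ± 0.14 in Lov-treated tumors (SD, n = 5/group), a difference of 0.35 with a standard error of 0.13, or 1.27-fold. Limma gave an unadjusted p of 0.023 and an adjusted p of 0.928, the exact permutation test gave p = 0.040, and the 95% interval ran from 0.06 to 0.64. The call rested on single tumors. It was lost without Vhcl A45 (0.27), without Vhcl AB11 (0.29) and without Lov A48 (0.31), as well as without AB11 and A19 together (0.28), although the sign held each time. Without AB11, A19 and A59 it was 0.36 and passed.

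Tnfaip3 (A20), a ubiquitin-editing enzyme that ends NF-kB signaling and another of its targets, had log2 signals of 6.34, 6.62, 6.20, 6.11 and 6.42 in Vhcl-treated tumors and 6.52, 6.16, 6.30, 5.86 and 5.96 in Lov-treated tumors. Lov A55 and AB10 were lowest and the groups overlapped (difference -0.18, 95% interval -0.49 to 0.13). Tnip1, its binding partner, differed by -0.15. Nfkbiz, an atypical nuclear IkB protein, ranged from 6.39 to 8.64 in Vhcl-treated and from 6.65 to 7.63 in Lov-treated tumors. Its difference of -0.48 had the widest interval after that of Cd14 (-1.21 to 0.24). Nfkbib and Nfkbie, relatives of Nfkbia, differed by 0.04 and -0.14. The inhibitors thus did not share a direction, with 2 positive and 4 negative differences.

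The spread between tumors was uneven over the genes. The SD over the 10 tumors ranged from 0.14 (Traf6) to 1.14 (Cd14), with Nfkbiz next at 0.64 and Tlr2 at 0.45, and its median of 0.24 was near the 0.26 of all probe sets with signals above the median. Vhcl A45 had the lowest signal for 11 of the 34 genes and Lov AB10 for 7, whereas Vhcl A54 was highest for 9 and Vhcl A49 for 8. Thus 1 tumor of each group stood low for many of the 34 genes. How often each tumor was lowest or highest over all probe sets was not counted, so this is no trait of the pathway. Lov AB10 also had the lowest array weight of the 10 (0.553).

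In all, 78 probe sets represented the 34 genes, and 18 genes had more than 1. Of the 78, 4 had an unadjusted p under 0.05 (5.13%, against 5.28% of all probe sets). Nfkbia was the clearest case of probe sets pointing the same way, since all 5 were positive (0.31 to 0.56). Only the chosen one passed the unadjusted threshold, and the others had limma unadjusted p from 0.055 to 0.094. These probe sets read 1 gene in the same tumors, so they are not independent of each other. Ikbkg (6 probe sets), Irak1 (4), Nfkbiz (3), Tirap (2) and Tnfaip3 (2) also kept 1 sign, and the other 12 genes did not. For Nfkb2, a second, dimmer probe set differed by -0.32 (SE 0.12, limma unadjusted p = 0.022, exact permutation p = 0.024), opposite to the 0.06 of the brighter one. For Il1rap, 1 of 5 probe sets, not the chosen one, differed by -0.70 (SE 0.31, limma unadjusted p = 0.045, exact permutation p = 0.095). The probe set that stands for a gene therefore set the sign for some members.

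**Figure D3:**
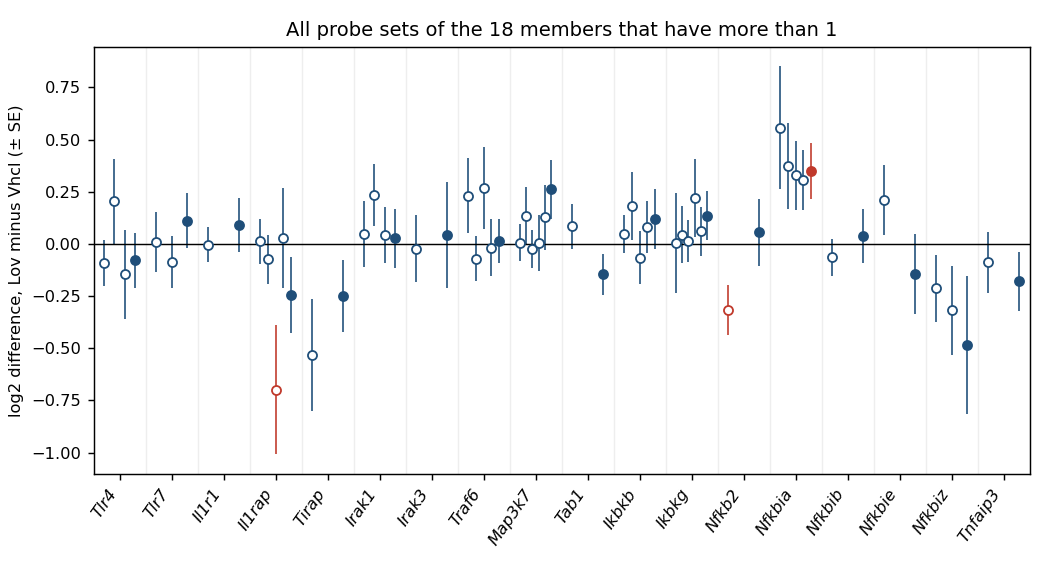
Difference in mean log2 signal, Lov minus Vhcl, with its standard error, for every probe set of the 18 genes that have more than 1. Filled points are the probe sets of highest mean signal, which stand for the gene, open points the others, and red marks an unadjusted p under 0.05; all 5 probe sets of Nfkbia lie above 0, while those of Nfkb2 fall on both sides.

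Cd14 is expressed by macrophages and neutrophils, among other cells, so markers of both were set beside it. Macrophage markers averaged 7.42 ± 0.16 in Vhcl- and 7.35 ± 0.36 in Lov-treated tumors (SD, n = 5/group). By unadjusted p (below 0.05), Csf1r was 0.43 higher and Itgam and Fcgr1 were each lower (-0.34 in both), and the other 7 of 10 markers did not pass. Cd14 followed the macrophage markers weakly over the 10 tumors (r = 0.457, permutation p = 0.181; rho = 0.491, permutation p = 0.156), and r was 0.033 without Lov A50 and AB10, the tumors farthest from the median.

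Neutrophil markers had signals below the median of all probe sets for 8 of the 8 measured genes (of 10 listed). Their mean was 4.32 ± 0.09 in Vhcl- and 4.18 ± 0.12 in Lov-treated tumors. S100a9 differed by -0.33 and passed the unadjusted threshold (exact permutation p = 0.040), while S100a8 differed by -0.70 (exact permutation p = 0.119). The other 6 did not pass, with differences from -0.18 for Elane to 0.10 for Csf3r, and 2 of the 8 were positive. S100a8 varied most over the 10 tumors (SD 0.70, against 0.27 or less for the others). Cd14 followed these markers over the 10 tumors with r = 0.790 (permutation p = 0.009) and rho = 0.867 (permutation p = 0.002), and r was 0.808 without Lov A50 and A55. After adjustment over the 68 relations computed, 34 genes with each of 2 marker means, neither passed (adjusted permutation p = 0.487 and 0.157). The relation rested largely on S100a8: without it, a setting added after seeing the data, the mean of the remaining 7 markers gave r = 0.459 (permutation p = 0.183) and rho = 0.261 (permutation p = 0.472), and r was 0.194 without Lov A50 and A55. Nfkbiz gave r = 0.702 (adjusted permutation p = 0.487), and 0 of the 68 relations passed for r or rho. A group of 5 tumors is too small for r within it, and with the group means removed r for Cd14 was 0.663. Relations of Cd14 with other marker sets were not computed, so the neutrophil markers are not singled out. Fibroblast markers (5 genes) averaged 8.448 in Vhcl A49, 7.97 in A54 and 8.428 in A59, but also 8.068 in Lov A19 and 8.596 in Lov A48. Mammary epithelium markers averaged 10.24 in Vhcl A49 and 10.41 in A59, but 9.99 in A54 beside 10.01 in A45. Whether leukocyte content, or that of other cells, had a part in the difference in Cd14 was not tested.

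**Figure D4:**
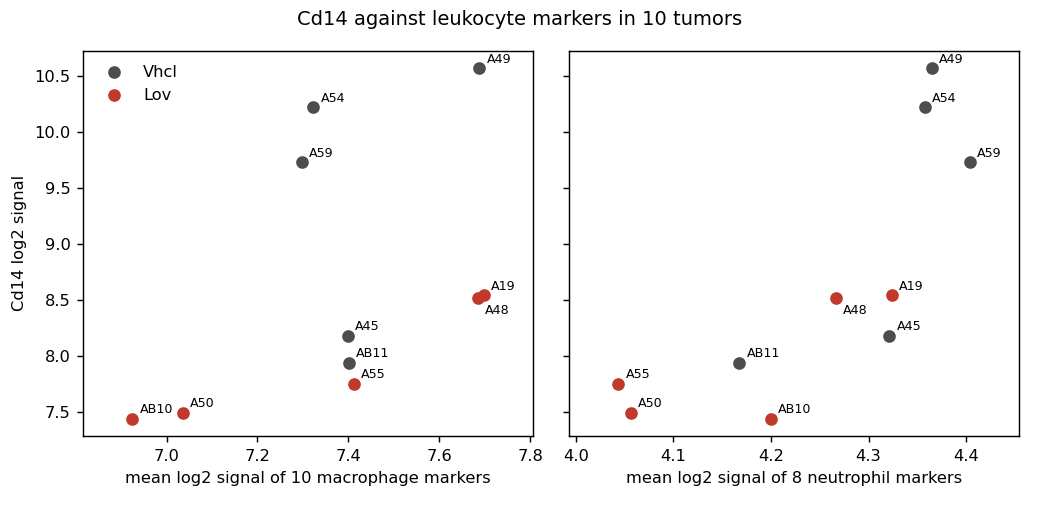
Cd14 log2 signal (vertical axis) against the mean log2 signal of 10 macrophage markers (left) and of 8 neutrophil markers (right) in 10 tumors, gray for Vhcl- and red for Lov-treated, each point marked with its tumor. Vhcl-treated tumors A49, A54 and A59 have the highest Cd14 signals and also lie high for neutrophil markers, whose means span a narrow range of 4.04 to 4.40 and vary mainly with S100a8. Relations with other marker sets were not computed.

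Other genes of the pathway were examined as a list of 53 genes, of which 46 were measured. The list was drawn up with earlier results of these data known. The unadjusted threshold was passed by 1 lower gene (2.17%, against 2.16% of all probe sets) and 4 higher genes (8.70%, against 3.13%), and the FDR by 0 (limma's lowest adjusted p = 0.919). Their median difference was -0.03, with 26 negative and 20 positive values, where 47.3% of all probe sets had a negative difference. Bcl3, an atypical IkB protein that modulates NF-kB dimers in the nucleus, had log2 signals of 6.81, 7.32, 6.84, 8.08 and 6.49 in Vhcl-treated tumors and 6.56, 6.34, 5.77, 5.83 and 5.67 in Lov-treated tumors. Of the Lov-treated tumors 4 lay below all Vhcl-treated ones, A19 being the exception. The difference was -1.07 (SE 0.28, exact permutation p = 0.016). Bcl3, like Cd14, stands in the study's own list of genes lowered in these arrays.

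Of the higher genes, Ly86, the partner of the Toll-like protein Cd180, had log2 signals of 6.71, 7.40, 6.82, 6.61 and 7.10 in Vhcl-treated tumors and 7.53, 7.61, 7.22, 7.52 and 7.22 in Lov-treated tumors. Vhcl A49 alone reached the Lov range (difference 0.49, SE 0.15, exact permutation p = 0.032), and the threshold was missed without the 3 tumors of raised salivary markers (0.42). Peli2, a ubiquitin ligase that acts on IRAK kinases, had log2 signals of 6.79, 5.47, 7.04, 5.37 and 7.18 in Vhcl-treated tumors and 7.26, 7.38, 7.52, 7.46 and 7.03 in Lov-treated tumors. Vhcl A49 and A59 were far below the other tumors, and the difference was 0.96 (SE 0.34, exact permutation p = 0.024). With the beta-actin gap as a covariate it was 0.82 and missed the threshold.

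Traf1, an NF-kB-induced adaptor of receptors of the tumor necrosis factor family, was likewise low in Vhcl A49 (4.29) and A59 (4.34) and in A45 (4.83), and differed by 0.98 (SE 0.39, exact permutation p = 0.079). It lost the unadjusted threshold without any 1 of Vhcl A45, A49 and A59 and Lov A48, A50 and A55 (0.77 to 0.95), with the beta-actin gap as a covariate (0.85) and in the unmoderated test. Nfkbid, another nuclear IkB protein, differed by 0.30 (SE 0.11, exact permutation p = 0.032) at signals below the array median, and missed the threshold without Lov A19 (0.24) or Vhcl A54 (0.25), without AB11 and A19 together (0.24), without the 3 tumors of raised salivary markers (0.30) and with array weights (0.26). Il18r1, singled out after its values were seen, had a mean of 5.96 in Vhcl- and 4.83 in Lov-treated tumors but did not pass (exact permutation p = 0.167). Tlr3 differed by -0.26 and Lbp, which delivers lipopolysaccharide to Cd14, by -0.45, and neither passed.

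As a readout downstream of NF-kB, 45 textbook target genes were listed, again with earlier results of these data known, and 43 measured. The unadjusted threshold was passed by 3 lower genes (6.98%, against 2.16% of all probe sets) and 1 higher gene (2.33%, against 3.13%), and the FDR by 0 (lowest adjusted p = 0.919). Their median difference was -0.07, with 28 negative and 15 positive values, where 47.3% of all probe sets had a negative difference. Whether the targets depart from the arrays in this was not tested. Of the 43, 18 had signals below the array median. The cytokines Tnf and Il1b, with signals above the array median, differed by 0.10 (95% interval -0.15 to 0.35) and 0.11 (-0.29 to 0.51). Il6 and Ptgs2, which encodes cyclooxygenase 2, had low mean log2 signals of 2.75 and 3.14, at percentiles 3.10 and 10.7 of all probe sets, and little can be read from their differences of -0.004 and -0.02.

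Cxcl10, a T cell chemokine that interferons also induce, had log2 signals of 5.54, 6.11, 5.26, 4.92 and 5.50 in Vhcl-treated tumors and 5.08, 4.81, 4.74, 4.79 and 4.93 in Lov-treated tumors. Vhcl A59 alone lay among the Lov-treated tumors (difference -0.60, SE 0.18, exact permutation p = 0.024). Ier3, an immediate early gene, had high signals and differed by -0.37 (SE 0.13, exact permutation p = 0.056), or by -0.31, past the threshold no longer, with the beta-actin gap as a covariate. Csf3, the granulocyte colony-stimulating factor, had a mean log2 signal of 3.98, below the array median. Its difference was -0.26 (SE 0.11, exact permutation p = 0.048). It fell short of the threshold without any 1 tumor other than Vhcl AB11, Lov A50 and Lov A55 (-0.255 to -0.225), with array weights (-0.23) and with the beta-actin gap as a covariate (-0.27). Cd83, a marker of activated dendritic cells, was the 1 higher target (0.42, SE 0.17, exact permutation p = 0.063), and missed the threshold without any 1 of Vhcl A45, A54 and A59 and Lov A48 and A55 (0.32 to 0.41), without AB11 and A19 together (0.46), without the 3 tumors of raised salivary markers (0.33), with the beta-actin gap as a covariate (0.30) and in the unmoderated test.

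**Figure D5:**
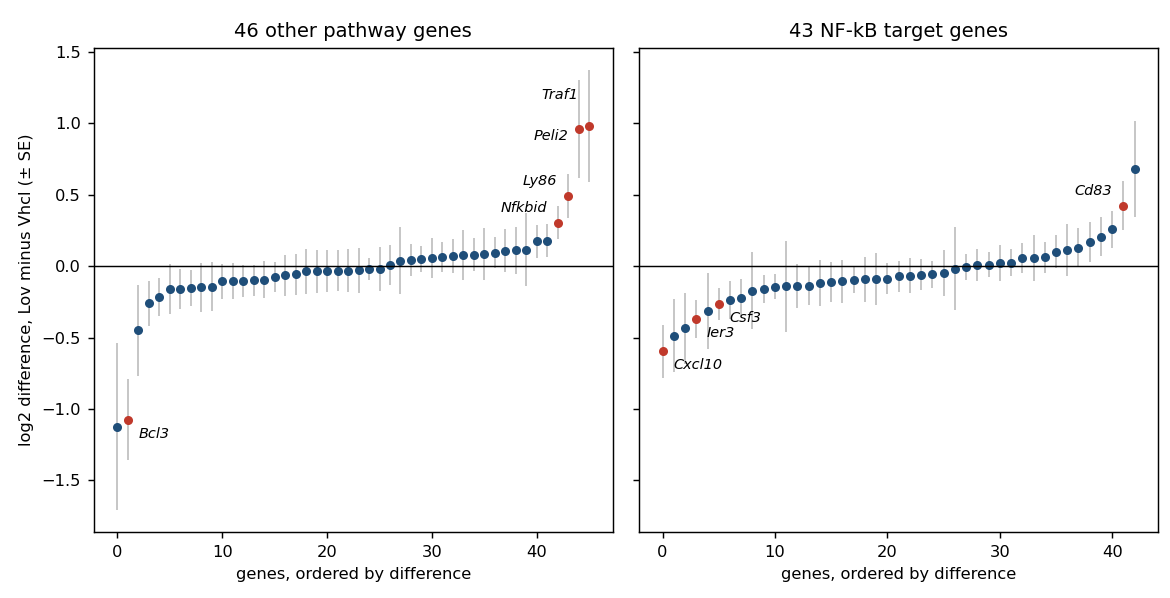
Differences in mean log2 signal, Lov minus Vhcl, with standard errors, for the 46 other pathway genes (left) and the 43 NF-kB target genes (right), each ordered by size. Red marks an unadjusted p under 0.05. Most values lie near 0. In the left panel, Il18r1 at -1.12 (not red) and Bcl3 at -1.07 lie far below it, and Traf1 at 0.98 and Peli2 at 0.96 far above.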

How the data were processed

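RNA of 10 whole mammary tumors (5 Vhcl, 5 Lov, grouped by the treatment label) had been hybridized to 1 Affymetrix array each. Per the labels, the deposited values are log2 signals that the submitters obtained with RMA (Robust Multi-array Analysis) in the affy package, whose version is not given in the sources used here, and they carry 2 decimals. RMA summarizes a probe set over its probes and equalizes the arrays, so an overall shift of a tumor cannot be seen. Array medians lay between 4.97 and 5.05. Arrays correlated at 0.972 to 0.980 within Vhcl, 0.981 to 0.990 within Lov and 0.969 to 0.987 between groups, so Vhcl-treated tumors were less alike. Arrays have no sequencing depth, and the number of tumors limits the precision.

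The 64 control probe sets were left out. The remaining 45037 were tested 2-sided by empirical Bayes moderation in limma 3.58.1 under R 4.3.3 (default prior, 3.61 degrees of freedom, Benjamini-Hochberg over all of them). Standard errors and 95% intervals are the moderated ones, from an estimate of the spread that both groups share. In exact permutation tests, all 252 ways to place 5 of 10 tumors in Lov were run (smallest possible p = 0.0079), and relations with markers used 100000 resamples (SciPy 1.17.1). Since the labels do not state which mouse gave which tumor, p-values measure the spread between these tumors. The platform annotation paired 34945 probe sets with 1 symbol, 932 with several and 9160 with none, and 34741 of the first matched the RefSeq gene table by Entrez ID. That table (GRCm38.p6) served for names, and RefSeq promoter windows of the same build for motifs, with a window for 29 of the 38 genes. The members and lists were chosen with earlier results of these data known. All 10 tumor values are given for members at an unadjusted p under 0.05 and for Tlr2, Tlr4, Cd14, Il1r1, Myd88, Rela, Nfkbia and Tnfaip3. Of other lists, genes at that threshold are named, up to 8 per direction. Of these, only Bcl3, Ly86, Peli2 and Cxcl10 have all their tumor values printed. The procedure was tested on simulated data. Alternatives were a trended, robust prior, array weights, an unmoderated test, median centering, further quantile normalization, a covariate (tumor ID prefix, or the 3' to 5' gap of beta-actin), the mean of a gene's probe sets, filters on signal and on shared probe sets, and leaving out tumors. Leaving out Lov A19, Vhcl A59 and Vhcl AB11 together, and S100a8 from the neutrophil markers, was chosen after seeing the data. The unmoderated test is the one that the methods name for other comparisons of 2 groups, not for the arrays.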

Additional observations from a re-analysis of the deposited data

Results flagged for a closer look

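In each group of 5 tumors, the highest and lowest signal of every measured gene of the pathway and of each named gene of the other lists was compared with the other tumors of its group. In 4 of 86 such groups 1 tumor stood apart, where about 1 in 20, or 4.3, would by chance alone. Lov A55 was highest for Ly96 at 5.24, with the other Lov-treated tumors between 4.96 and 5.03. Lov A19 was lowest for Il1rap at 6.93, with the others between 7.58 and 7.78. Lov AB10 was lowest for Myd88 at 7.51, with the others between 7.82 and 7.91. Vhcl AB11 was lowest for Csf3 at 3.77, with the other Vhcl-treated tumors between 4.15 and 4.27.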

How the results depend on the processing

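Over 22 alternatives, Cd14 stayed lower in Lov-treated tumors (-1.88 to -1.07), past the unadjusted threshold in all but the fit with the 3' to 5' gap of beta-actin as covariate (-1.17), where Ticam1 was the 1 lower gene in its place. Nfkbia stayed higher (0.27 to 0.45) but missed the threshold without Vhcl A45, Vhcl AB11 or Lov A48, and without Vhcl AB11 and Lov A19 together. The count of lower genes ranged from 1 to 2 when 1 tumor was left out. Cd14 was joined by Myd88 without Vhcl A45, by Nfkbiz without Vhcl AB11, by Tirap without Lov A19 and by Relb without Lov A50. Without AB11 and A19 together the count was 2 (Cd14 and Nfkbiz), as it was without AB11, A19 and A59, chosen after seeing the data. The count of higher genes ranged from 0 (without A45, AB11 or A48) to 2 (Nfkbia and Map3k7, without A19). The median difference ranged from -0.14 (without A45) to 0.0078 (without A54) when 1 tumor was left out. Signs turned at least once for 12 of the 34 genes, all with differences of 0.14 or less in size, Tlr2 among them (-0.057 without A45 and -0.032 without A59, up to 0.274 without A49). Bcl3 and Cxcl10 passed the threshold in all 22 alternatives. Ly86 missed it in 1 and Cd83 in 9 of 22, Traf1 in 8 of 22, Csf3 in 9 of 21 and Nfkbid in 5 of 21, and Peli2 and Ier3 in 1 each, the fit with the beta-actin gap. The unmoderated test, which the methods do not use for the arrays, called 2 of the 34 genes at an unadjusted p under 0.05 and 0 after Benjamini-Hochberg adjustment. The causes of these changes were not tested. No paired analysis was possible because the labels carry no shared replicate numbers.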
